A study of Mus musculus with 50 samples.

Results

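The 10 genes described here encode the receptor, kinase, transcription factors, feedback inhibitors and immune checkpoint ligands of interferon-gamma signalling. They are Ifngr1, Ifngr2, Jak2, Irf1, Irf8, Stat3, Socs1, Socs3, Cd274 and Pdcd1lg2. They were chosen by name, from their known roles and with earlier results of these data known, and are 10 of the 19494 genes with a symbol on the array. Shares of all genes set beside counts of these genes are therefore descriptions. All 10 were measured, each by 1 probe set. RNA from mouse colon was hybridised to 50 arrays, in 8 genotypes and 10 groups of 5 arrays, from mice aged 10 to 12 weeks. IEC-KO marks a deletion in intestinal epithelial cells. FADD is an adaptor of death receptors, and caspase-8 is the protease it recruits, which starts apoptosis and restrains the necrotic form of cell death called necroptosis. Arrays with title numbers 1-30 came from CASP8 IEC-KO Mlkl -/- and CASP8 IEC-KO mice, from FADD IEC-KO mice that carried Zbp1 -/-, Mlkl -/- or neither allele, and from Fadd fl/fl mice. Arrays numbered 86-124 came from CASP8 IEC-KO mice, from mice carrying FADD IEC-KO RIPK3 IEC-KO, from FADD IEC-KO mice and from Casp8 fl/fl mice. Zbp1 -/- and Mlkl -/- are not limited to the epithelium by their notation, whereas RIPK3 IEC-KO is a further epithelial deletion. ZBP1, a nucleic acid sensor, acts through RIPK3, whose substrate MLKL ruptures the membrane in necroptosis. Neither the promoter driving the recombinase nor the sex of the mice is given in the labels. The floxed control was Fadd fl/fl in the first series and Casp8 fl/fl in the second, so that series and floxed line cannot be told apart.

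Interferon-gamma, made mainly by T and NK cells, binds a receptor of IFNGR1 and IFNGR2 chains and activates the kinases JAK1 and JAK2. The signal then reaches GAS elements in DNA and raises IRF1, which in turn binds ISRE-like elements and raises antigen presentation genes and PD-L1, the product of Cd274. SOCS1 blocks the JAK kinases as negative feedback, while SOCS3 does so mainly downstream of receptors that signal through STAT3, a factor of mucosal repair and of the response to cytokines of the interleukin-6 and interleukin-22 families. In the gut, PD-L1 and PD-L2 (Pdcd1lg2) bind the receptor PD-1 on T cells and restrain them.

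The deposited values were log2 signals, and array medians lay between 6.41 and 6.47. The targeted genes followed the labels where they could be read. Mean Fadd signal was 6.14 to 6.39 in the 5 groups with FADD IEC-KO, against 7.30 to 7.61 in the others. Casp8 averaged 8.98 to 9.14 in the groups with CASP8 IEC-KO, against 10.20 to 10.80 elsewhere. Mlkl averaged 7.17 and 7.31 in the Mlkl -/- groups, against 8.14 to 9.18 elsewhere. Zbp1 (5.49 in FADD IEC-KO Zbp1 -/-, 5.68 in Fadd fl/fl) and Ripk3 (6.68 in FADD IEC-KO RIPK3 IEC-KO, 6.60 in Casp8 fl/fl) stood near the floxed level in their own co-deletions. As a check of the tissue label, 12 epithelial markers averaged 10.76 to 11.24 on all arrays. Some arrays stood apart in markers of neutrophils. The mean of 9 such markers was 8.39 and 6.91 on FADD IEC-KO arrays 22 and 23 and 7.42 and 6.09 on FADD IEC-KO arrays 117 and 124, against 4.42 to 4.63 in Fadd fl/fl and 4.54 to 4.76 in Casp8 fl/fl. Results that rest on arrays 22 and 23 are therefore also given without them. The labels do not say that every array is a separate animal, so p-values measure the spread between these samples.

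The promoter sequences of 5 of the genes are shown first, because they differ in the elements through which interferon signals reach DNA. In the RefSeq promoter windows of build GRCm38.p6, restricted to the 250 bases before the start site, the GAS letters TTCNNNGAA were present in 7.02% and the ISRE letters (GAAA, 2 bases of any kind, GAAA), read on either strand, in 2.98% of 32851 windows. These windows leave out repeated ones and those of a single chromosome, which holds none of the 10 genes. All 10 genes were matched, with 12 windows, since Irf1 and Irf8 have a second start site. GAS letters were present in the windows of Socs3 and of the first start site of Irf1 and Irf8, and ISRE letters in that of Socs1. The windows of the second start sites of Irf1 (chr11:53770223-53770472) and Irf8 (chr8:120738389-120738638) and those of the other 6 genes, Cd274 among them, held neither. The windows shown are those of Irf1 (chr11:53769764-53770013, plus strand), Irf8 (chr8:120736108-120736357, plus strand), Socs1 (chr16:10785537-10785786, minus strand), Socs3 (chr11:117969367-117969616, minus strand) and Cd274 (chr19:29367188-29367437, plus strand), written 5′ to 3′ with matches in capitals.
Irf1: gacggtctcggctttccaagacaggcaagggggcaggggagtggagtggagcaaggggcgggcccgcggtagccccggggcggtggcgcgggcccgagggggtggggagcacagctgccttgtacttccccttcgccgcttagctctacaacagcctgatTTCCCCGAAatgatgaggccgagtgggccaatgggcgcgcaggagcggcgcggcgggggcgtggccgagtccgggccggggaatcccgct
Irf8: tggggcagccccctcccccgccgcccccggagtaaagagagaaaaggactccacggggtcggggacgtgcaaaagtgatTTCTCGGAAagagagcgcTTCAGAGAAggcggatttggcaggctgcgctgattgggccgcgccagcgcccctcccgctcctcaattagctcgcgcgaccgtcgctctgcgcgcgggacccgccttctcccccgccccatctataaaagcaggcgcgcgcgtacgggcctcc
Socs1: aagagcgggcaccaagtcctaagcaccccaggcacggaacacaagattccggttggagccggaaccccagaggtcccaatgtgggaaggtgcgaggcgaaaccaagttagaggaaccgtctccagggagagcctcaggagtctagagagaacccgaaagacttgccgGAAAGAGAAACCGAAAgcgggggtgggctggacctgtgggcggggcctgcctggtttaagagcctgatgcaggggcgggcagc
Socs3: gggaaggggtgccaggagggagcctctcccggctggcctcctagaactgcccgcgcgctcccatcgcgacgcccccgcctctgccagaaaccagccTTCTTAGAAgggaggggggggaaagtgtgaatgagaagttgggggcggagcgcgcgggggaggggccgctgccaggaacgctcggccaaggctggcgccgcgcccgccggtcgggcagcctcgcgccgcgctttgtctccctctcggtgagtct
Cd274: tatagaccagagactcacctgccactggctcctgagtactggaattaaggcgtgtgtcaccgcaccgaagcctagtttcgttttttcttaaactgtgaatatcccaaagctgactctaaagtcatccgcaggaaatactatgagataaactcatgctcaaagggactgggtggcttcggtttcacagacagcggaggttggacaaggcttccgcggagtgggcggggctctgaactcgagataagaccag
The match in Irf1 began 90 bases before the start site, those in Irf8 171 and 153 bases before it, and that in Socs3 154 bases before it. In Socs1 the capitals are a pair of overlapping ISRE matches that began 83 and 77 bases before the start site. A match is a description of letters, and occupancy was not measured.

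Epithelial loss of FADD was examined first, in series 1-30. Irf1, Irf8, Stat3, Socs1, Socs3 and Cd274 rose in FADD IEC-KO colon, whereas the receptor chains, Jak2 and Pdcd1lg2 did not pass the test. Cd274 showed the largest difference, 1.38 ± 0.32 log2 units (SE, n = 5 arrays per group), or 2.60-fold. These 6 of 10 genes stand beside 8.59% of all genes that rose in the same comparison, at a limma adjusted p under 0.05, and 10.1% fell. The median difference of the 10 genes was 0.66, against -0.02 over all genes. The RNA came from whole colon, so more cells of a type and more RNA per cell cannot be told apart.

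The receptor genes were among the brighter probe sets of the array and varied little. Ifngr1, the ligand-binding chain, lay between 9.97 and 10.50 on all 50 arrays, and Ifngr2, the signal-transducing chain, between 9.35 and 9.97. In series 1-30 Ifngr1 averaged 10.11 ± 0.09 in FADD IEC-KO and 10.29 ± 0.10 in Fadd fl/fl (SD, n = 5 each), a difference of -0.18 ± 0.07 (SE) that narrowly missed the threshold (limma adjusted p = 0.0569). It passed when array 21, 25 or 29 was left out (-0.21, -0.20 and -0.20, limma adjusted p = 0.0332, 0.046 and 0.0496). Leaving out other single arrays gave a limma adjusted p of up to 0.157. With all arrays kept, it passed without the dimmest 40% of genes (limma adjusted p = 0.0337) and under trend and robust moderation (limma adjusted p = 0.0414). Ifngr2 differed by -0.05 ± 0.08. Jak2, the kinase bound to IFNGR2, measured 9.20 to 9.61 in FADD IEC-KO and 9.07 to 9.37 in Fadd fl/fl, overlapping ranges with a difference of 0.19 ± 0.11 (limma adjusted p = 0.264).

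Among the transcription factors, Irf1, an early target and effector of interferon-gamma, measured 9.51, 10.74, 10.10, 9.84 and 9.97 on FADD IEC-KO arrays 21 to 25, against 8.81, 9.11, 8.96, 9.38 and 9.44 on Fadd fl/fl arrays 26 to 30. Every FADD IEC-KO array was above every floxed array, although array 21 was only just so. The difference was 0.89 ± 0.18 (limma adjusted p = 0.000459). Irf8, a factor of macrophages and dendritic cells that interferon-gamma also induces, measured 7.67, 8.23, 7.92, 7.85 and 7.76 in FADD IEC-KO, against 7.19, 7.26, 7.50, 7.22 and 7.23 in Fadd fl/fl. These ranges were also separate, with array 28 the highest of the floxed arrays, and the difference was 0.60 ± 0.10 (limma adjusted p = 0.00012). Stat3 measured 9.09, 9.73, 9.82, 9.45 and 9.42 in FADD IEC-KO, against 8.95, 8.75, 8.86, 8.67 and 8.72 in Fadd fl/fl. Its difference of 0.71 ± 0.12 had the smallest adjusted p of the 10 genes (limma, 0.000104). Irf1, Irf8 and Stat3 were the 3 members whose groups did not overlap, beside 4.23% of all genes separated in this direction, and all 3 still passed without arrays 22 and 23.

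The feedback inhibitors rose less evenly. Socs1 measured 5.55, 7.72, 6.32, 6.19 and 6.22 in FADD IEC-KO, against 5.57, 5.79, 5.50, 5.56 and 5.39 in Fadd fl/fl, so that array 22 stood more than 1 log2 unit above the rest and array 21 lay within the floxed range. The difference was 0.84 ± 0.20 (limma adjusted p = 0.00245), and 0.51 without array 22. It did not pass when only the arrays of these groups were fitted (limma adjusted p = 0.0942), nor did Socs3 (limma adjusted p = 0.122). Socs3 measured 6.08, 8.06, 7.15, 6.19 and 6.33 in FADD IEC-KO, against 5.74, 6.01, 5.82, 6.12 and 6.09 in Fadd fl/fl. Arrays 22 and 23 were again the highest, array 21 lay within the floxed range, and arrays 24 and 25 were slightly above it. The Socs3 difference of 0.81 ± 0.22 (limma adjusted p = 0.0077) was 0.48 without array 22 (adjusted p = 0.0817). Without arrays 22 and 23 together it was 0.25 (limma adjusted p = 0.513), and that of Socs1 was 0.42 (adjusted p = 0.135). The neutrophil markers were highest on the same arrays, 8.39 and 6.91 against 4.65 to 5.20 on the other FADD IEC-KO arrays, and their part in the result was not tested.

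Of the checkpoint ligands, Cd274 measured 6.76, 9.33, 8.26, 7.88 and 7.40 in FADD IEC-KO, against 6.31, 6.44, 6.68, 6.45 and 6.84 in Fadd fl/fl. Arrays 22 to 25 were above all floxed arrays, and array 21 lay inside the floxed range (limma adjusted p = 0.00204). Without arrays 22 and 23 the difference was 0.80 (limma adjusted p = 0.152). Pdcd1lg2, the neighbouring gene for PD-L2, measured 5.81, 6.43, 6.23, 6.11 and 6.32 in FADD IEC-KO, against 5.64, 6.01, 6.07, 6.05 and 5.85 in Fadd fl/fl. It differed by 0.26 ± 0.12 (limma adjusted p = 0.135), and by 0.35 without array 21 (limma adjusted p = 0.0325). Array 21 was the lowest FADD IEC-KO array for Jak2, Irf1, Irf8, Stat3, Socs1, Socs3, Cd274 and Pdcd1lg2.

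**Figure D1:**
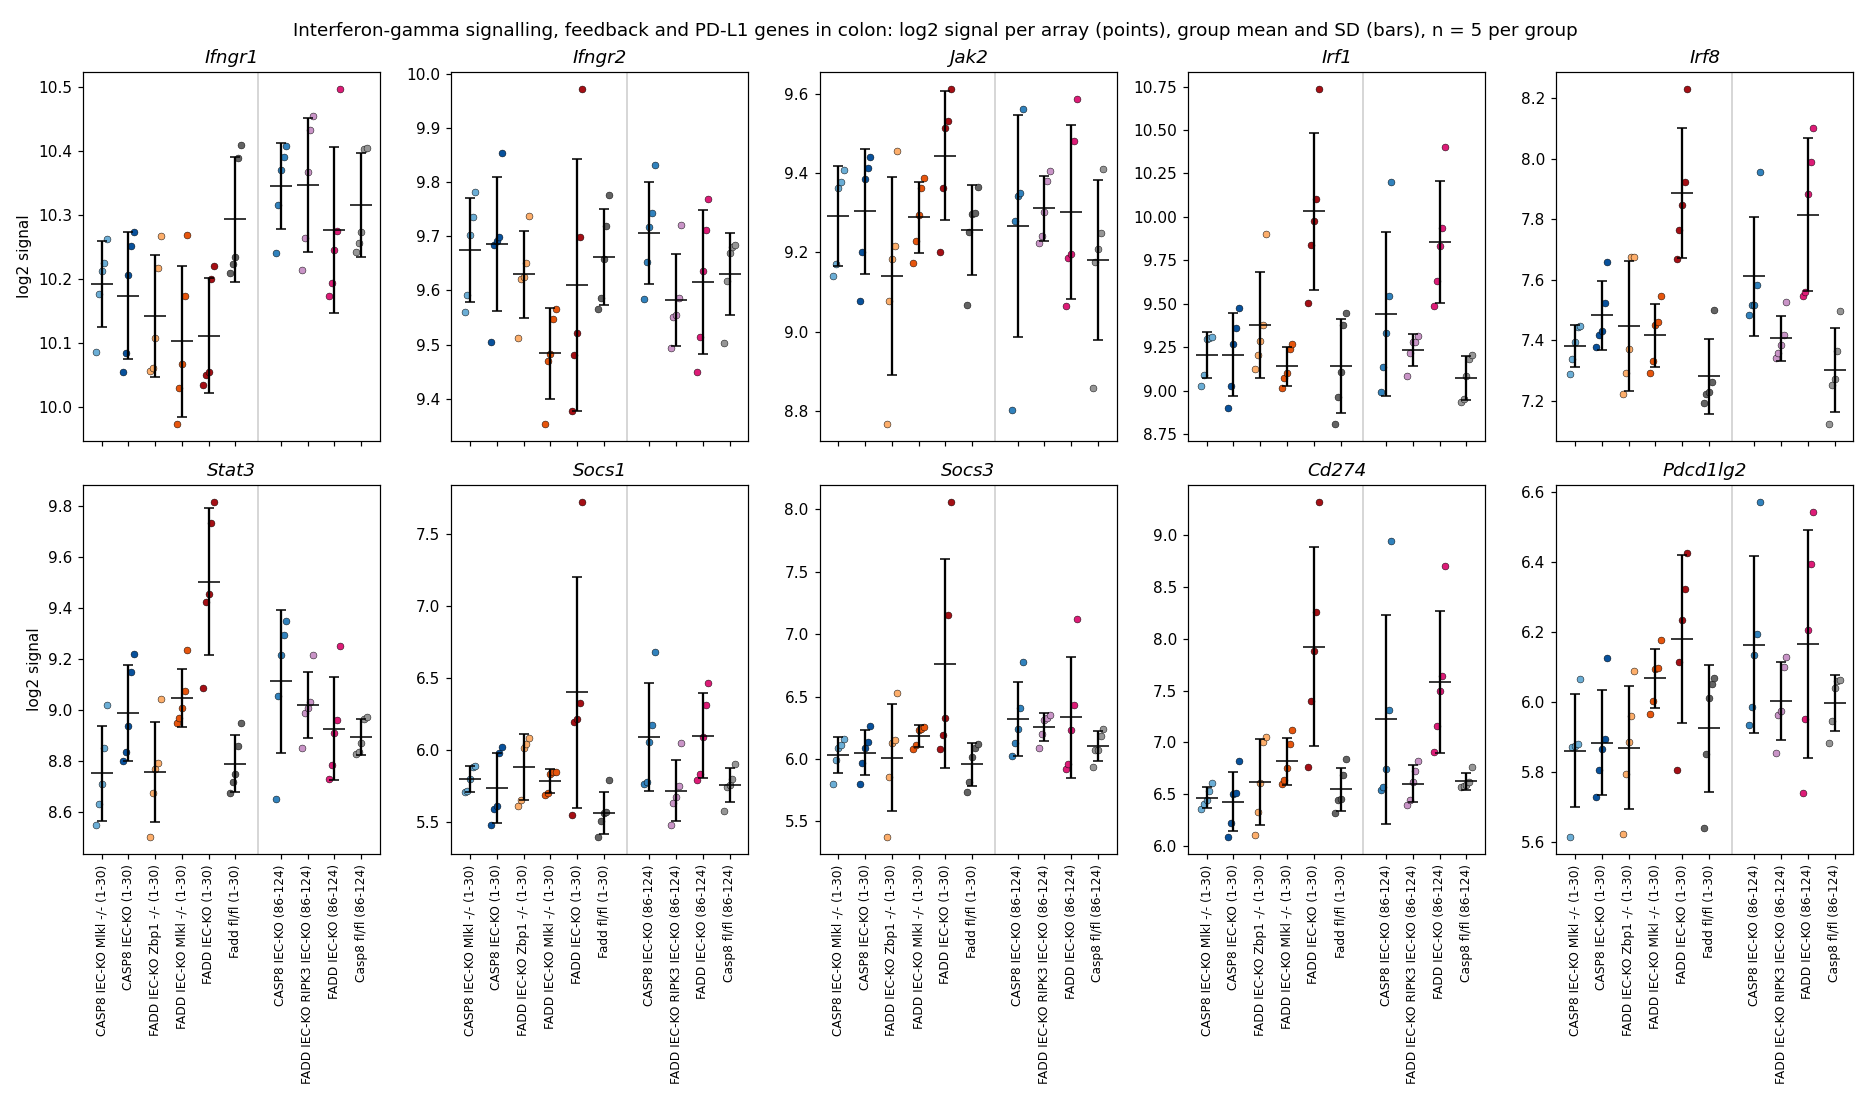
Log2 signal (y axis, separate scale per panel) of the 10 genes by group (x axis), with 1 point per array and the group mean with its SD, n = 5. The grey line separates title numbers 1-30 from 86-124. FADD IEC-KO has the highest group mean of its series for Irf1, Irf8, Socs1, Socs3, Cd274 and Pdcd1lg2. Ifngr1 and Ifngr2 span only 0.524 and 0.619 log2 units over all 50 arrays.

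In series 86-124 FADD IEC-KO was set against Casp8 fl/fl. Irf1, Irf8 and Cd274 rose again, and the other 7 did not pass. These 3 of 10 stand beside 6.8% of all genes that rose and 4.25% that fell, and the median of the 10 was 0.20, against -0.03 over all genes. Irf1 measured 9.63, 9.48, 10.40, 9.94 and 9.83 on FADD IEC-KO arrays 89, 95, 117, 120 and 124, against 9.18, 9.09, 8.95, 8.93 and 9.21 on Casp8 fl/fl arrays 86, 91, 98, 105 and 119. The difference was 0.79 ± 0.18 (limma adjusted p = 0.00244). Irf8 measured 7.55, 7.56, 7.99, 8.10 and 7.88 in FADD IEC-KO, against 7.50, 7.12, 7.25, 7.27 and 7.37 in Casp8 fl/fl. Its difference was 0.51 ± 0.10 (limma adjusted p = 0.000829). For Irf1, Irf8 and Cd274 the groups did not overlap, beside 4.51% of all genes separated in this direction.

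Cd274 measured 6.91, 7.16, 8.70, 7.65 and 7.49 on these FADD IEC-KO arrays, against 6.58, 6.59, 6.62, 6.76 and 6.56 in Casp8 fl/fl. Array 117 was the highest, as it was for Irf1. The difference of 0.96 ± 0.32 was close to the threshold (limma adjusted p = 0.0431). It lost its call without any of FADD IEC-KO arrays 117, 120 and 124 or Casp8 fl/fl arrays 86, 91, 98, 105 and 119, with values of 0.68 (without 117), 0.94, 0.98, 0.95, 0.95, 0.96, 0.99 and 0.94 and a limma adjusted p of up to 0.202. It also missed the threshold when only these arrays were fitted (limma adjusted p = 0.0579) and under trend and robust moderation (limma adjusted p = 0.0545). The neutrophil mean on array 117 was 7.42, and its part in the result was not tested.

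Stat3 did not follow Irf1 in this series. It measured 8.73, 8.91, 9.25, 8.79 and 8.96 in FADD IEC-KO, against 8.84, 8.87, 8.96, 8.97 and 8.83 in Casp8 fl/fl, overlapping ranges with a difference of 0.03 ± 0.12 (limma adjusted p = 0.897). The Stat3 difference in series 1-30 minus that in series 86-124 was 0.68 ± 0.17, short of the threshold (limma adjusted p = 0.0603). It passed without array 21 (0.78, limma adjusted p = 0.0257) or without array 117 (0.76, limma adjusted p = 0.0256), and with all arrays kept it passed without the dimmest 40% of genes (limma adjusted p = 0.0322) and under trend and robust moderation (limma adjusted p = 0.0382). None of the other 9 passed this test either, beside 0.123% of all genes that did, with limma adjusted p from 0.505 to 0.946, and at an unadjusted p Stat3 alone was under 0.05, beside 10.7% of all genes. Socs1 differed by 0.35 ± 0.20 and Socs3 by 0.23 ± 0.22 in series 86-124, neither past the threshold. Jak2 differed by 0.12 ± 0.11, Pdcd1lg2 by 0.17 ± 0.12, Ifngr1 by -0.04 ± 0.07 and Ifngr2 by -0.01 ± 0.08.

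Loss of caspase-8 was examined next. In CASP8 IEC-KO against Casp8 fl/fl none of the 10 genes passed in limma, beside 2.46% of all genes that passed in either direction, and 2 of 10 had an unadjusted p under 0.05, beside 18.3% of all genes. All 10 differences were above 0, with a median of 0.22, against -0.01 over all genes. Irf8 measured 7.58, 7.52, 7.52, 7.96 and 7.48 on CASP8 IEC-KO arrays 87, 92, 100, 104 and 108, against 7.12 to 7.50 in Casp8 fl/fl, a difference of 0.31 ± 0.10 (limma adjusted p = 0.09). Cd274 measured 7.31, 6.54, 6.74, 8.94 and 6.57 in CASP8 IEC-KO, against 6.56 to 6.76 in Casp8 fl/fl. Arrays 104 and 87 were above all floxed arrays and the other 3 were at their level, so the difference of 0.60 ± 0.32 (limma adjusted p = 0.317) was 0.17 without array 104. Irf1 followed the same arrays, at 9.55, 9.14, 9.33, 10.20 and 8.99 in CASP8 IEC-KO, against 8.93 to 9.21 in Casp8 fl/fl (0.37 ± 0.18, limma adjusted p = 0.249). Array 104 also had the highest mean of 22 interferon-gamma induced genes in its group, 9.04 against 6.68 to 7.56 on the other 4 CASP8 IEC-KO arrays, and a neutrophil mean of 5.60 against 4.60 to 4.84.

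In series 1-30 CASP8 IEC-KO was set against Fadd fl/fl, the floxed line of the other gene. None of the 10 genes passed in limma, beside 0.123% of all genes that passed in either direction. None had an unadjusted p under 0.05 either, beside 11.7% of all genes. Differences lay between -0.12 (Ifngr1 and Cd274) and 0.20 (Irf8 and Stat3). Cd274 measured 6.09 to 6.82 in CASP8 IEC-KO and 6.31 to 6.84 in Fadd fl/fl. The CASP8 effects in the 2 series were not distinguished by the test of their difference for any member (limma adjusted p = 0.72 to 0.993), beside 0.00513% of all genes that passed. At an unadjusted p under 0.05 there were 0 members, beside 7.95% of all genes.

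Set directly against FADD IEC-KO, with the differences in both series averaged, CASP8 IEC-KO had lower Irf1, Irf8 and Cd274. These 3 of 10 genes stand beside 3% of all genes that were lower. Irf1 differed by -0.62 ± 0.12 (SE, 10 arrays per genotype, limma adjusted p = 0.00214), Cd274 by -0.93 ± 0.23 (limma adjusted p = 0.0111) and Irf8 by -0.30 ± 0.07 (limma adjusted p = 0.0101). Socs1 (-0.34 ± 0.14), Socs3 (-0.36 ± 0.16), Stat3 (-0.16 ± 0.08) and Pdcd1lg2 (-0.15 ± 0.08) were not past the threshold, and Jak2 differed by -0.09 ± 0.08. Ifngr1 and Ifngr2 differed by 0.07 ± 0.05 and 0.08 ± 0.06. Without arrays 22 and 23 only Irf1 still passed, and Cd274 differed by -0.64 (limma adjusted p = 0.154). Without array 21 Socs1 passed too (-0.44, limma adjusted p = 0.024). When only the CASP8 IEC-KO and FADD IEC-KO arrays were fitted, none passed (limma adjusted p = 0.117 for Irf1, 0.151 for Irf8 and 0.209 for Cd274).

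Co-deletion of Zbp1, which its notation does not limit to the epithelium, was then examined. In FADD IEC-KO Zbp1 -/- against FADD IEC-KO, Stat3, Cd274, Irf8, Irf1 and Socs3 fell, 5 of 10 genes beside 5.14% of all genes that fell. The median of the 10 was -0.48, against 0.01 over all genes. Stat3 measured 8.68, 8.50, 8.77, 9.04 and 8.79 on FADD IEC-KO Zbp1 -/- arrays 1 to 5, against 9.09 to 9.82 in FADD IEC-KO. It was the 1 member whose groups did not overlap, beside 2.77% of all genes separated in this direction, and the difference was -0.75 ± 0.12 (limma adjusted p = 0.000166). Stat3 was also the 1 member to pass when only these 10 arrays were fitted and when arrays 22 and 23 were left out.

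Cd274 measured 6.11, 6.33, 7.06, 7.01 and 6.61 in FADD IEC-KO Zbp1 -/-, against 6.76 to 9.33 in FADD IEC-KO, a difference of -1.30 ± 0.32 (limma adjusted p = 0.00679) that was -0.95 without array 22 (adjusted p = 0.0573). Irf1 measured 9.12, 9.29, 9.21, 9.90 and 9.38 in FADD IEC-KO Zbp1 -/-, against 9.51 to 10.74 in FADD IEC-KO. Array 4 of the co-deletion lay within the FADD IEC-KO range for Irf1. The Irf1 difference was -0.65 ± 0.18 (limma adjusted p = 0.0126), and -0.48 without array 22 (adjusted p = 0.0924). Irf8 differed by -0.44 ± 0.10 (limma adjusted p = 0.00513). Socs3 differed by -0.76 ± 0.22 (limma adjusted p = 0.0208), and lost its call without array 22, 23, 3 or 5 (-0.43, -0.66, -0.60 and -0.72, adjusted p = 0.169, 0.0783, 0.0842 and 0.0509). Socs1 (-0.52 ± 0.20), Jak2 (-0.30 ± 0.11) and Pdcd1lg2 (-0.31 ± 0.12) were not past the threshold with limma adjusted p of 0.0821, 0.0742 and 0.0846. Each of these passed without array 21 (-0.73, -0.36 and -0.40, limma adjusted p = 0.00599, 0.0294 and 0.0176), and Jak2 also without array 5 (-0.38, adjusted p = 0.0348). Jak2 passed as well with all arrays kept but without the dimmest 40% of genes (limma adjusted p = 0.0485). Ifngr1 and Ifngr2 differed by 0.03 ± 0.07 and 0.02 ± 0.08.

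Co-deletion of Mlkl was examined in the same way, and membrane rupture was not measured. In FADD IEC-KO Mlkl -/- against FADD IEC-KO, Irf1, Irf8, Stat3 and Cd274 fell, 4 of 10 genes beside 2.93% of all genes that fell, and the median of the 10 was -0.46. Irf1 measured 9.01, 9.24, 9.10, 9.07 and 9.27 on FADD IEC-KO Mlkl -/- arrays 11 to 15, all below the 9.51 to 10.74 of FADD IEC-KO (-0.89 ± 0.18, limma adjusted p = 0.00265). Irf8 measured 7.55, 7.33, 7.45, 7.46 and 7.29 in the co-deletion, below the 7.67 to 8.23 of FADD IEC-KO (-0.47 ± 0.10, limma adjusted p = 0.00536). These 2 genes were separated between groups, beside 2.28% of all genes. Cd274 measured 6.64, 6.98, 7.12, 6.60 and 6.75 in FADD IEC-KO Mlkl -/-, against 6.76 to 9.33 in FADD IEC-KO. The difference of -1.11 ± 0.32 (limma adjusted p = 0.0285) lost its call without array 22, 23, 11, 14 or 15 (-0.76, -1.02, -1.06, -1.05 and -1.09, adjusted p = 0.188, 0.0905, 0.0588, 0.0722 and 0.0539).

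Stat3 measured 8.95 to 9.23 in FADD IEC-KO Mlkl -/- and 9.09 to 9.82 in FADD IEC-KO, a difference of -0.46 ± 0.12 (limma adjusted p = 0.0159) that lost its call without array 22 or 23 (-0.40 and -0.38, adjusted p = 0.0793 and 0.0825). Socs1 (-0.62 ± 0.20, limma adjusted p = 0.0526) and Socs3 (-0.58 ± 0.22, limma adjusted p = 0.107) passed only without array 21 (-0.83 and -0.75, adjusted p = 0.00268 and 0.0218) or 24 (-0.67 and -0.72, adjusted p = 0.0427 and 0.0417), apart from Socs1 under quantile normalization and group variance weights. Ifngr2 (-0.13 ± 0.08), Jak2 (-0.16 ± 0.11), Pdcd1lg2 (-0.11 ± 0.12) and Ifngr1 (-0.01 ± 0.07) did not pass. None of the 10 passed without arrays 22 and 23, or when only these 10 arrays were fitted.

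In series 86-124, FADD IEC-KO RIPK3 IEC-KO was set against FADD IEC-KO. Irf8 fell, 1 of 10 genes beside 0.595% of all genes that fell. It measured 7.34, 7.39, 7.36, 7.42 and 7.53 on FADD IEC-KO RIPK3 IEC-KO arrays 88, 93, 112, 113 and 123, against 7.55 to 8.10 in FADD IEC-KO (-0.41 ± 0.10, limma adjusted p = 0.044). The call was lost without any of FADD IEC-KO arrays 117, 120 and 124 or FADD IEC-KO RIPK3 IEC-KO arrays 88, 93, 112, 113 and 123, at values of -0.37, -0.34, -0.39, -0.39, -0.40, -0.40, -0.41 and -0.44 (limma adjusted p up to 0.151). Irf1 measured 9.08 to 9.31 in the co-deletion and 9.48 to 10.40 in FADD IEC-KO, with a difference of -0.62 ± 0.18 short of the threshold (limma adjusted p = 0.0715), which passed without array 95 (-0.72, limma adjusted p = 0.0346). Cd274 measured 6.39 to 6.82 in the co-deletion and 6.91 to 8.70 in FADD IEC-KO (-0.98 ± 0.32, limma adjusted p = 0.121). For Irf1, Irf8 and Cd274 the groups did not overlap, beside 1.94% of all genes separated in this direction. Stat3 differed by 0.09 ± 0.12, Socs1 by -0.38 ± 0.20 and Socs3 by -0.08 ± 0.22, and the other 4 by -0.16 to 0.07.

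Loss of Mlkl in CASP8 IEC-KO colon was without a call in limma (0 of 10, beside 0.421% of all genes that passed in either direction). At an unadjusted p under 0.05 there were 0 members, beside 13.1% of all genes. Stat3 differed by -0.23 ± 0.12 (limma adjusted p = 0.39), and the other 9 differences lay between -0.10 and 0.06. The Mlkl effect in CASP8 IEC-KO minus that in FADD IEC-KO was above 0 for all 10 genes, at 0.89 ± 0.25 for Irf1 (limma adjusted p = 0.193) and 1.14 ± 0.45 for Cd274 (limma adjusted p = 0.332). None passed this limma test, beside 0.0154% of all genes, and 4 of 10 had an unadjusted p under 0.05, beside 11% of all genes. Irf1 passed without array 21 (1.02, limma adjusted p = 0.0363).

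**Figure D2:**
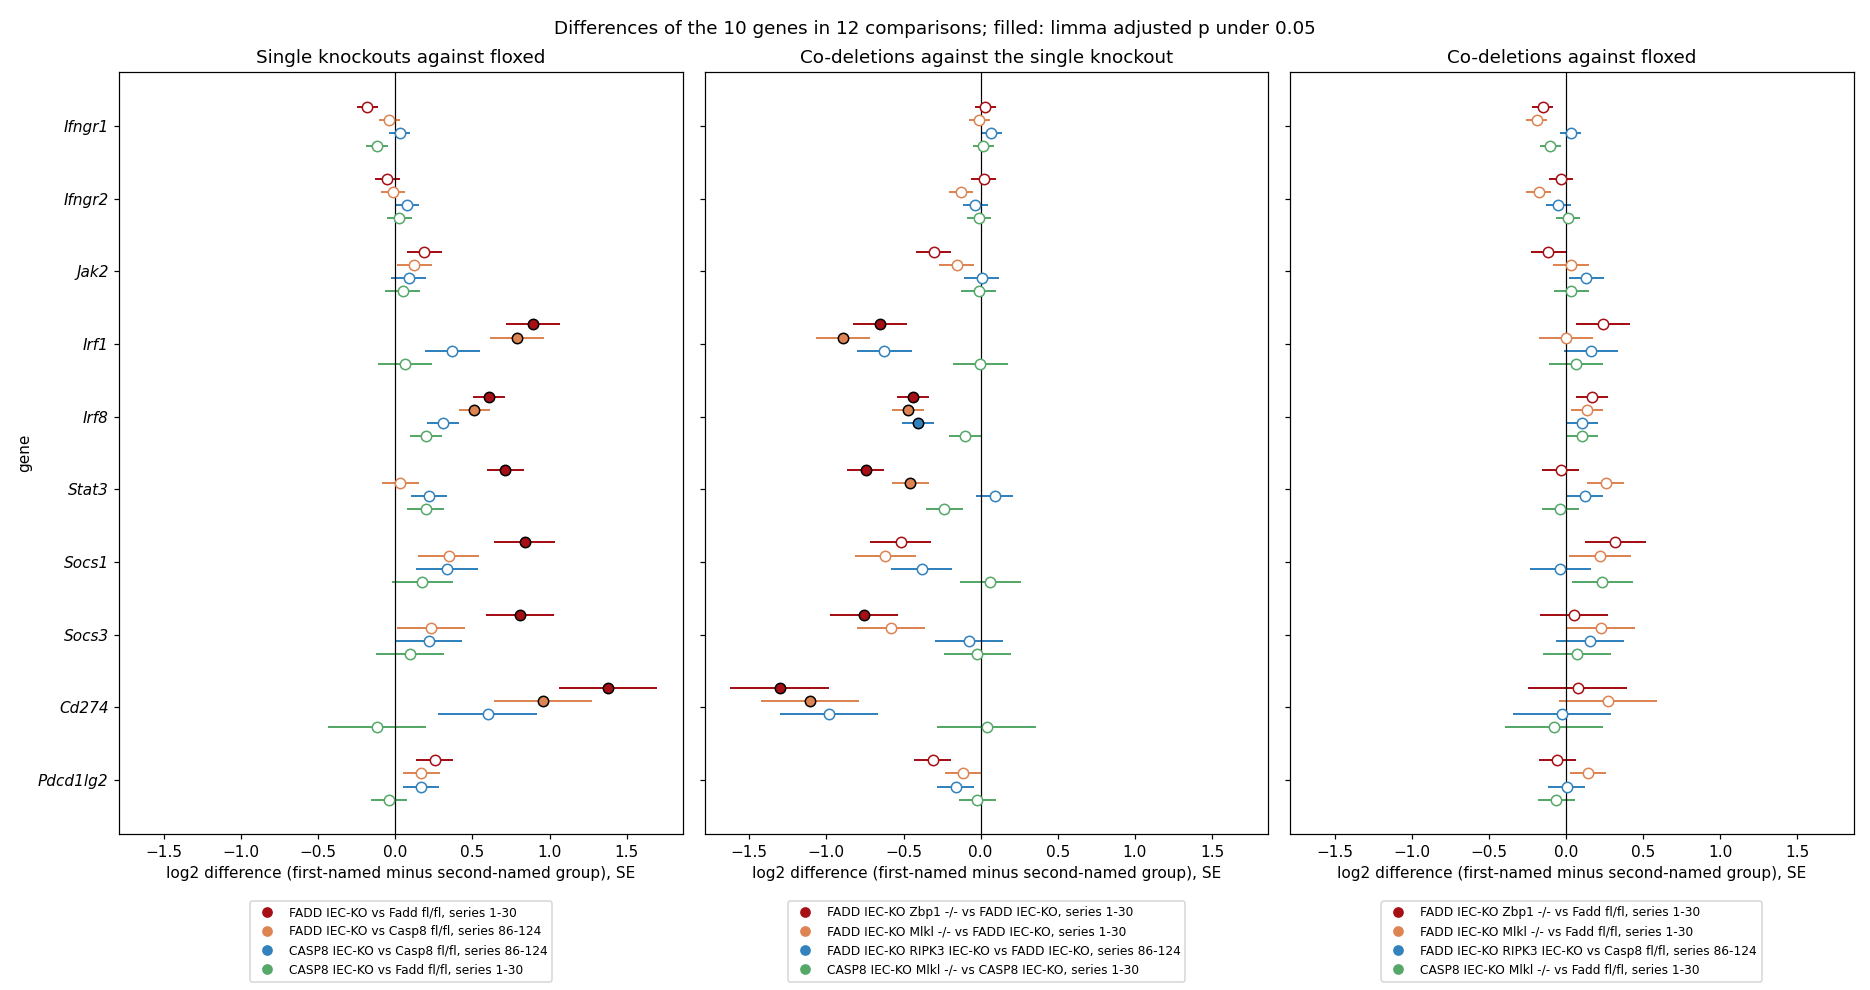
Log2 difference (x axis) with its SE for each of the 10 genes (y axis) in 12 comparisons, with filled points at a limma adjusted p under 0.05. Filled points are Irf1, Irf8, Stat3, Socs1, Socs3 and Cd274 to the right on the left panel and Stat3, Irf1, Irf8, Socs3 and Cd274 to the left on the middle panel, and the right panel has none.

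Against floxed colon none of the 4 co-deletions had a member that passed in limma. Of all genes, 1.07% passed in FADD IEC-KO Zbp1 -/- and 0.159% in FADD IEC-KO Mlkl -/-. At an unadjusted p under 0.05 these co-deletions had 1 and 3 members, beside 12.7% and 9.38% of all genes at that threshold. The RIPK3 co-deletion in FADD IEC-KO and the Mlkl co-deletion in CASP8 IEC-KO had 0 members at that threshold, beside 10.7% and 8.19% of all genes, and 0.0769% and 0.0462% of all genes passed after adjustment. Taken in that order, Cd274 differed from floxed by 0.07, 0.27, -0.02 and -0.08, each with an SE of 0.32. In FADD IEC-KO Mlkl -/- Stat3 was above all Fadd fl/fl arrays by a margin smaller than rounding (8.95 to 9.23 against 8.67 to 8.95, difference 0.26 ± 0.12, limma adjusted p = 0.493). Ifngr2 lay below them, also by a margin smaller than rounding (9.35 to 9.57 against 9.57 to 9.78, difference -0.18 ± 0.08, limma adjusted p = 0.468). Such separation was found for 1.21% of all genes upward and 1.72% downward. With 5 arrays a group and these SEs, a p that misses the threshold does not show that levels were alike.

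Ordered by group mean, Cd274 was highest in FADD IEC-KO of series 1-30 (7.92 ± 0.96, SD, n = 5), then FADD IEC-KO of series 86-124 (7.58 ± 0.69) and CASP8 IEC-KO of series 86-124 (7.22 ± 1.01). The other 7 groups averaged 6.43 to 6.82. Irf1, Irf8, Socs1, Socs3 and Pdcd1lg2 had the same leading groups, with Irf1 at 10.03 ± 0.45, 9.86 ± 0.35 and 9.44 ± 0.47 and Irf8 at 7.89 ± 0.21, 7.82 ± 0.25 and 7.61 ± 0.20. The means of the latter groups of series 86-124 were close for Socs1 (6.10 and 6.09), Socs3 (6.33 and 6.32) and Pdcd1lg2 (6.17 and 6.16). Stat3 had another order, with FADD IEC-KO of series 1-30 first (9.50 ± 0.29) and FADD IEC-KO of series 86-124 in sixth place (8.93 ± 0.20). Neighbours in each gene's order had overlapping ranges for all 10 genes. Over the 50 arrays Cd274 spanned 3.24 log2 units, Socs3 2.69, Socs1 2.33 and Irf1 1.93, while Ifngr1 spanned 0.524.

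Across the 50 arrays Cd274 and Irf1 had a Pearson r of 0.89, and of 0.84 once group means were removed. Irf1 and Irf8 had r = 0.82 (0.58 within groups), Socs1 and Cd274 r = 0.81 (0.74), and Cd274 and Pdcd1lg2 r = 0.68 (0.55). Ifngr1 had r between -0.15 and 0.17 with the members other than Ifngr2, with which it had r = 0.40. The arrays share tissue, platform and cell makeup, so these values are descriptions. By the same measure the genes outside the set most like Cd274 were Gbp7 (0.94), Cxcl9 (0.92) and Gbp4 (0.92), which are interferon-induced GTPases and a T cell chemoattractant. Those most like Irf1 were Il18bp, Gbp2 and Iigp1 (0.92 each), and those most like Irf8 were Iigp1 (0.84), Tgtp2 (0.83) and Wars (0.83). Once group means were removed, r was 0.80 to 0.81 for the genes nearest Irf1, but 0.55 to 0.58 for those nearest Irf8. Stat3 was nearest to Slc39a11 (0.83), Ptpn1 (0.81) and Arf5 (0.81), and Socs1 to Cxcl10, Pim1 and Gbp4 (0.83 each). Socs3 was nearest to Mmp9 (0.86), a gelatinase stored in neutrophils, Stfa2l1 (0.85) and S100a9 (0.85), a neutrophil calcium-binding protein. Pdcd1lg2 was nearest to H2-T10 (0.76) and H2-Q5 (0.72), members of a multigene family whose probe sets can share signal, and to Sppl2a (0.72). Jak2 was nearest to Acot9 (0.75), Rp2 (0.71) and Srsf9 (0.70), Ifngr1 to Pik3ip1 (0.70), Slc38a6 (0.61) and Rnf141 (0.60), and Ifngr2 to Stap2 (0.64), Nt5e (0.63) and Pycard (0.63). Within groups, r with Ifngr1 was 0.58, 0.38 and 0.44 for Pik3ip1, Slc38a6 and Rnf141.

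**Figure D3:**
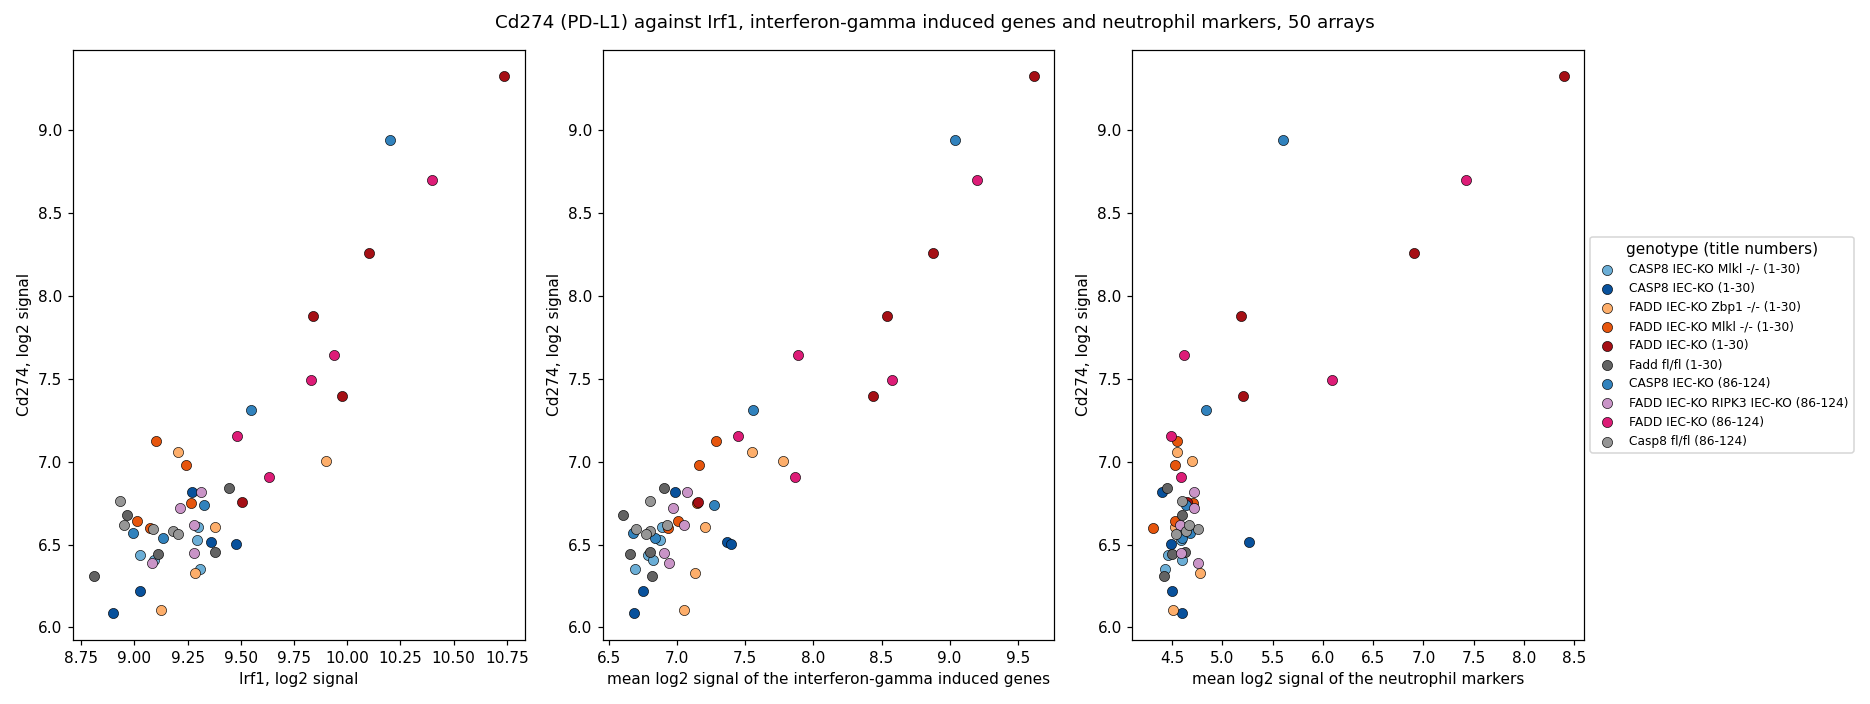
Cd274 log2 signal (y axis) against Irf1 log2 signal, the mean log2 signal of 22 interferon-gamma induced genes and that of 9 neutrophil markers (x axes), with 1 point per array coloured by group. FADD IEC-KO array 22, CASP8 IEC-KO array 104 and FADD IEC-KO array 117 are the highest at 9.33, 8.94 and 8.70 for Cd274, and array 104 has a neutrophil mean of 5.60, against 8.39 and 7.42 on the other two.

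Related genes were read from lists written by name, and 22 of 27 genes listed as interferon-gamma induced were measured. The lists do not separate interferon-gamma from other interferons, and which interferon acted was not tested. In FADD IEC-KO 21 of the 22 rose against Fadd fl/fl, with a median of 1.64, and 20 rose against Casp8 fl/fl, with a median of 1.47. Of all genes, 8.59% and 6.8% rose in these comparisons. The examples with the smallest adjusted p were Wars, a tryptophan tRNA ligase (1.14 ± 0.17 against Fadd fl/fl, 0.83 ± 0.17 against Casp8 fl/fl), the peptide-loading factor Tapbp (0.51 ± 0.08 and 0.38 ± 0.08), the GTPase Iigp1 (2.92 ± 0.46 and 2.15 ± 0.46) and the class I light chain B2m (0.92 ± 0.15 and 0.71 ± 0.15). Against FADD IEC-KO, 21 of the list fell with Zbp1 co-deletion, 20 with Mlkl co-deletion and 7 with RIPK3 co-deletion. Of all genes, 5.14%, 2.93% and 0.595% fell in these comparisons. In CASP8 IEC-KO, 1 rose against Casp8 fl/fl (Wars, 0.59 ± 0.17, limma adjusted p = 0.0437) and 0 against Fadd fl/fl, and 20 were lower than in FADD IEC-KO. Of all genes, 2.46% and 0.123% passed in either direction against these floxed groups, and 3% were lower than in FADD IEC-KO. The 1 that rose is near its share. Ifng itself, named here as the ligand and outside the naming rule, lay between 3.51 and 6.57 over all arrays. It differed by 0.56 ± 0.30 in FADD IEC-KO against Fadd fl/fl (limma adjusted p = 0.201) and by 0.36 ± 0.30 against Casp8 fl/fl (limma adjusted p = 0.482).

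The list of other signalling genes also holds genes of type I interferon signalling, among them Ifnar1, Ifnar2, Stat2 and Irf9. Of 18 measured, 5 rose and 2 fell in FADD IEC-KO against Fadd fl/fl, and 2 rose against Casp8 fl/fl. Of all genes, 8.59% rose and 10.1% fell in the first comparison and 6.8% rose in the second, so the 2 that fell and the 2 that rose in the second are near the background. Those 2, named here outside the naming rule, were Stat2 (0.99 ± 0.18) and Irf9 (0.66 ± 0.17). Both also rose against Fadd fl/fl (0.69 ± 0.18 and 0.65 ± 0.17). Ptpn1, a phosphatase that acts on JAK2, rose by 0.77 ± 0.13 (limma adjusted p = 0.0001) against Fadd fl/fl and differed by 0.25 ± 0.13 against Casp8 fl/fl (adjusted p = 0.206), an uneven pair of values like those of Stat3. It fell in FADD IEC-KO Zbp1 -/- (-0.68 ± 0.13) and FADD IEC-KO Mlkl -/- (-0.61 ± 0.13). Socs2, an inhibitor of growth hormone signalling, fell by 0.75 log2 units in FADD IEC-KO against Fadd fl/fl (SE 0.17, limma adjusted p = 0.00197). Irf2, which competes with IRF1 for its sites, fell (-0.36 ± 0.08, limma adjusted p = 0.00221), and Pias4 rose (0.33 ± 0.08, limma adjusted p = 0.00231). Against Casp8 fl/fl these 3 differed by -0.28 ± 0.17, -0.18 ± 0.08 and 0.05 ± 0.08, none past the threshold.

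Of 22 STAT3-activating cytokines, receptors and targets, 9 rose and 2 fell in FADD IEC-KO against Fadd fl/fl, with a median of 0.49. Against Casp8 fl/fl 1 rose, with a median of 0.25. The 9 that rose stand beside 8.59% of all genes. The 2 that fell and the 1 that rose against Casp8 fl/fl are no larger a share than over all genes (10.1% and 6.8%). Pim1, a kinase gene that STAT factors induce, rose in both (1.26 ± 0.26 and 0.81 ± 0.26, limma adjusted p = 0.000763 and 0.0367). Bcl3 (1.07 ± 0.25), Myc (0.71 ± 0.17) and the oncostatin M receptor gene Osmr (0.70 ± 0.18) rose against Fadd fl/fl, and against Casp8 fl/fl differed by 0.59 ± 0.25, 0.42 ± 0.17 and 0.30 ± 0.18, which did not pass. Of 19 checkpoint receptors and B7 family genes, 6 rose and 1 fell against Fadd fl/fl, and 5 rose and 1 fell against Casp8 fl/fl. Of all genes, 8.59% rose and 10.1% fell in the first comparison, and 6.8% rose and 4.25% fell in the second. The 1 that fell in each is near or below those shares. Lgals9, which encodes galectin-9, rose by 1.22 ± 0.22 and 1.39 ± 0.22 (limma adjusted p = 0.000252 and 6.36e-05), and the T cell inhibitory receptor gene Ctla4 by 1.18 ± 0.27 and 0.80 ± 0.27 (limma adjusted p = 0.00163 and 0.0434). Cd86, a ligand of CTLA-4, rose against Fadd fl/fl (0.81 ± 0.20) and differed by 0.38 ± 0.20 against Casp8 fl/fl. Cmtm4, a relative of the PD-L1 stabiliser CMTM6, fell against Fadd fl/fl (-0.37 ± 0.09, limma adjusted p = 0.00302) and differed by -0.23 ± 0.09 against Casp8 fl/fl (limma adjusted p = 0.0825).

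Markers of immune cells were counted in the comparisons where members passed. In FADD IEC-KO against Fadd fl/fl, 11 of 13 macrophage and monocyte markers rose and 1 fell, 7 of 15 T and NK cell markers rose, 6 of 9 neutrophil markers rose, 3 of 8 B and plasma cell markers rose and 1 of 9 dendritic cell markers rose. Of all genes, 8.59% rose and 10.1% fell in this comparison. The dendritic cell marker that rose and the macrophage marker that fell are near these shares. Against Casp8 fl/fl 7 of the macrophage markers rose, 1 of the T and NK cell and 1 of the neutrophil markers, and 0 of the B cell and dendritic cell markers, beside 6.8% of all genes. The T and NK cell and neutrophil counts are near that share. Against FADD IEC-KO, 7 of 9 neutrophil markers fell with Zbp1 co-deletion, 5 with Mlkl co-deletion and 0 with RIPK3 co-deletion, and 5 were lower in CASP8 IEC-KO. Of all genes, 5.14%, 2.93% and 0.595% fell in these co-deletions, in that order, and 3% were lower in CASP8 IEC-KO. Of 13 macrophage markers 2, 4 and 1 fell in these co-deletions, 1 rose with Zbp1 and 1 with Mlkl co-deletion, and 10 were lower in CASP8 IEC-KO. Of all 19494 genes, 2096 passed with Zbp1 and 1140 with Mlkl co-deletion. Of these, 1002 and 572 fell and the rest rose, so the 1 marker that rose in each is not read as a result. Of 15 T and NK cell markers 3, 0 and 1 fell and 3 were lower, of 8 B and plasma cell markers 2, 1 and 0 fell and 1 was lower, and of 9 dendritic cell markers 0 passed. The macrophage mean was 7.31 to 8.30 and 6.92 to 8.16 in FADD IEC-KO of the 2 series, against 6.78 to 7.41 in Fadd fl/fl and 6.88 to 7.13 in Casp8 fl/fl. All 9 smooth muscle markers fell against Fadd fl/fl and 2 against Casp8 fl/fl, with 3 of 6 fibroblast and 2 of 6 endothelial markers falling in each. Of all genes, 10.1% and 4.25% fell in these comparisons. Epithelial markers were mixed, with 3 rising and 3 falling of 12 against Fadd fl/fl and 2 rising against Casp8 fl/fl. Genes of the set, Irf8, Socs3, Cd274 and Pdcd1lg2 among them, are also expressed by immune cells. The part of the cell markers in the results was not tested for any of the 10 genes.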

How the data were processed

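RNA of 50 mouse colon samples was measured on Affymetrix arrays, from 100 ng of RNA per the labels. Per the submitters' processing notes, Expression Console and Transcriptome Analysis Console were used, without a stated version or normalization algorithm. Each deposited file value is a log2 signal, for 22142 probe sets, between 1.18 and 13.30, and no further normalization was applied, since the SD of any quantile between arrays was at most 0.0474. The platform annotation gave 1 symbol to 19527 probe sets, several to 0 and none to 2615. The probe set with the highest mean was kept per symbol, which dropped 33. No detection calls were used, so no gene was called absent. The number of arrays limits the precision.

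Groups were genotype by title-number series, 10 groups of 5 arrays. A model with 1 mean per group was fitted in limma 3.58.1 (R 4.3.3) over all arrays (40 residual degrees of freedom) with empirical Bayes moderation, and Benjamini-Hochberg adjustment ran over 19494 genes. An adjusted p under 0.05 passed. Contrasts stayed within a series, since the labels do not say whether the series are batches. SEs come from this fit. The procedure was tested on simulated data in which each gene had the same spread in every group. Unequal group spreads, as in these data, were not covered by that test. Members and lists were chosen with earlier results of these data known. Named genes are all 10 members and, per list, up to 4 with the smallest adjusted p in FADD IEC-KO against Fadd fl/fl. List genes were matched by symbol alone. Likeness is Pearson r over the 50 arrays. The alternatives were leaving out the dimmest 40% of genes, fitting only the arrays compared, group variance weights, trend and robust moderation, quantile normalization, means of probe sets, leaving out each array, leaving out arrays 22 and 23, pooled series, and a size of at least 0.5 log2 units. Promoters are RefSeq windows of GRCm38.p6.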

Additional observations from a re-analysis of the deposited data

Results flagged for a closer look

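In 3 of the 100 combinations of gene and group, 1 array lay far from the other 4, by Dixon's criterion for 5 values (0.71). Chance gives about 1 in 20 such combinations. Irf8 was 7.96 on CASP8 IEC-KO array 104, against 7.48 to 7.58 on the other 4 arrays of its group (gap over range 0.786). Irf8 was 7.50 on Fadd fl/fl array 28, against 7.19 to 7.26 on the others (0.767). Cd274 was 6.76 on Casp8 fl/fl array 105, against 6.56 to 6.62 on the others (0.733). No member passed the tests of a difference in the FADD or CASP8 effect between series, or of a difference in the Mlkl effect between CASP8 IEC-KO and FADD IEC-KO.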

How the results depend on the processing

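Of 3044 alternative values for single members, none changed sign while called, 348 of 408 called values kept their call and 30 values gained one. Without FADD IEC-KO arrays 22 and 23 the number of members called was 3 of 6 in FADD IEC-KO against Fadd fl/fl, 1 of 5 for Zbp1 co-deletion, 0 of 4 for Mlkl co-deletion and 1 of 3 in CASP8 IEC-KO against FADD IEC-KO. Fitting only the arrays compared left 4 of 6 in FADD IEC-KO against Fadd fl/fl, 2 of 3 against Casp8 fl/fl, 1 for Zbp1, 0 for Mlkl, 0 for RIPK3 co-deletion and 0 for CASP8 IEC-KO against FADD IEC-KO. It estimates the spread from fewer arrays and only from the groups compared, and group spreads differed. Cd274 had an SD of 0.96 in FADD IEC-KO of series 1-30 and 0.08 in Casp8 fl/fl. Its SE was 0.38 for Zbp1 co-deletion and 0.26 for FADD IEC-KO against Casp8 fl/fl, and 0.32 when all arrays were fitted. An SE shared by all groups can be too small where a more variable group is compared. The causes of the calls lost when fitting only the arrays compared were not tested. Over all genes, that fit called 1784 in place of 3650 in FADD IEC-KO against Fadd fl/fl, 787 in place of 2154 against Casp8 fl/fl, 184 in place of 2096 for Zbp1, 51 in place of 1140 for Mlkl, 22 in place of 147 for RIPK3 and 41 in place of 1000 in CASP8 IEC-KO against FADD IEC-KO. Without arrays 22 and 23 the first called 682, Zbp1 121, Mlkl 8 and the last 135. Pooling both series with a series term gave 6 members in place of 3 in FADD IEC-KO against floxed of series 86-124, and 1 in place of 0 in CASP8 IEC-KO against either floxed group (Irf8, 0.26, limma adjusted p = 0.0349). Requiring at least 0.5 log2 left 2 for Mlkl and 0 for RIPK3 co-deletion. RIPK3 co-deletion had 2 without the dimmest 40% of genes and 0 under group variance weights. The test between series had 1 (Stat3) in place of 0 without the dimmest genes and 1 under trend and robust moderation. Leaving out each array gave 5 to 8 members in FADD IEC-KO against Fadd fl/fl, 2 to 3 against Casp8 fl/fl, 2 to 8 for Zbp1, 2 to 6 for Mlkl and 0 to 2 for RIPK3 co-deletion, 3 to 4 in CASP8 IEC-KO against FADD IEC-KO, and 0 to 1 in the tests between series for FADD loss and between knockouts for Mlkl loss. No paired analysis was possible because title numbers are unique and no 2 groups share one. Genes near background could not be separated from absent ones.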

Other observations

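Jak2, Cd274 and Pdcd1lg2 lie close together on chromosome 19 in the RefSeq gene order, with Insl6, Rln1 and Plgrkt between Jak2 and Cd274, Ric1 and Ermp1 after Pdcd1lg2, and Rcl1 and Ak3 before Jak2. These neighbours were looked at after values were known. In FADD IEC-KO against Fadd fl/fl, Insl6 rose by 0.64 ± 0.13 log2 units (limma adjusted p = 0.0008) and Ermp1 by 0.50 ± 0.10 (limma adjusted p = 0.000583). Rln1, Plgrkt and Ric1 differed by -0.08 ± 0.16, -0.15 ± 0.12 and 0.06 ± 0.10, none past the threshold. Ak3 fell (-0.22 ± 0.08, limma adjusted p = 0.0402), and Rcl1 differed by 0.12 ± 0.11, which did not pass.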
